A study of Mus musculus with 11 samples.

Results

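The genes described here are 10 markers and regulators of epithelial and mesenchymal cell state, chosen by symbol from the 55487 genes listed for MC38 tumours and for cells sorted out of such tumours. They are Vim, Fn1, Cdh2, Zeb1, Zeb2, Snai2, Cdh1, Epcam, Krt8 and Krt18, and each was read in all 11 libraries. MC38 is a mouse colon carcinoma line. The study asked how FGF21 secreted by tumour cells acts on CD8+ T cells, and the tumour cells carried either a control short hairpin RNA (shNC, with the genotype label WT) or a hairpin against Fgf21 (shFgf21). Bulk RNA sequencing gave 3 shNC and 3 shFgf21 libraries labelled as tumour tissue, the MC38 line and mesenchymal cells, and 3 shNC and 2 shFgf21 libraries labelled as T cells sorted from tumours. One of the sorted shFgf21 libraries, replicate 2, carries a genotype label naming FGF22 and was grouped by its title. The sources used here do not give the hairpin vector, whether a line was 1 clone, the age and strain of the host mice, or how animals were pooled. Nothing says that replicates came from separate cultures or animals. P-values therefore reflect only how these libraries scatter, which may be technical.

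Epithelial cells hold to each other through E-cadherin, the product of Cdh1, and through Epcam, and carry keratins 8 and 18 (Krt8, Krt18) as the intermediate filaments of simple epithelia such as the colon lining. Mesenchymal cells use the intermediate filament vimentin (Vim), deposit fibronectin (Fn1) into their matrix and often carry N-cadherin (Cdh2). The zinc finger factors Zeb1, Zeb2 and Snai2 (also called Slug) repress epithelial genes by binding E-boxes, short DNA motifs of which CACCTG is a well known form, and carcinoma cells that have moved toward a mesenchymal state commonly show them.

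Because these repressors act at promoters, RefSeq windows (250 bases before to 50 after a RefSeq start, build GRCm38.p6) are shown for the epithelial genes that were near 0 counts in tumours and for Vim, which was among the highest of the 10 genes. Sequences were at hand for 5 of the 10 genes, namely these 4 and Zeb2. Each window is written 5′ to 3′ on the strand of the gene, and capitals mark CACCTG or the same motif read from the other strand, CAGGTG.
Epcam, chr17:87635729-87636028, plus strand: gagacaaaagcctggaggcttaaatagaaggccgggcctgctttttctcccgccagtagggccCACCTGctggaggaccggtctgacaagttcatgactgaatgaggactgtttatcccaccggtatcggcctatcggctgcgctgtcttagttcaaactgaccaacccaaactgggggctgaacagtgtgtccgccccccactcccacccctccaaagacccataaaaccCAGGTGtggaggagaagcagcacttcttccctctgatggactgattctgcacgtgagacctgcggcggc
Krt8, chr15:102004293-102004592, minus strand: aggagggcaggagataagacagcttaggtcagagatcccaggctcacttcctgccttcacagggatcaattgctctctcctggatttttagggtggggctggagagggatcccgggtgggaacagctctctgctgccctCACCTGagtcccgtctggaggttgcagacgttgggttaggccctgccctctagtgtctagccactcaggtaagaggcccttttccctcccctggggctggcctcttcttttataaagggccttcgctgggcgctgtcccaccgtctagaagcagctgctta
Krt18, chr15:102027966-102028265, plus strand: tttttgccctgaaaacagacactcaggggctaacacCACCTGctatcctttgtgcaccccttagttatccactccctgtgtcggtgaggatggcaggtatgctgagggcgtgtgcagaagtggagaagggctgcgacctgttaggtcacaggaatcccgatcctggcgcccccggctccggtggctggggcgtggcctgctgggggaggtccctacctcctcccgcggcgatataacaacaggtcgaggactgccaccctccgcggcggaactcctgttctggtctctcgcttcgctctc
Vim, chr2:13574061-13574360, plus strand: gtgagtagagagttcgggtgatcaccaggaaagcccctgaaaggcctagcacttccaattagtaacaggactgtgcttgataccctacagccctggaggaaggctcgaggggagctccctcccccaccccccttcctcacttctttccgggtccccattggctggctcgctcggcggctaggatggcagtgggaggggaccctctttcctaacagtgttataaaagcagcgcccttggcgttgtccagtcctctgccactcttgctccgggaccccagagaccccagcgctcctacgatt
The Epcam window held the motif at 2 places, its first base at -187 and at -19 from the RefSeq start, which is also the start listed in the deposited table. The Krt8 window held it once, at -111 from a RefSeq start that lies 140 bases inside the listed gene, so that the motif is 29 bases inside it. The Krt18 window held it once, at -214 from a RefSeq start 36 bases inside the listed gene, or at -178 from the listed start. The Vim window and the 4 windows for Zeb2 held none, but the Vim start of RefSeq lies 384 bases inside the listed gene, so its window does not cover the listed start. Of all 32851 windows of 300 bases, 20.2% held the motif and 2.88% held it at 2 or more places. A match describes letters in the window and shows no binding.

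Total counts ran from 14944013 to 19099350 per library, and a count of 0 allows up to 3 counts, or 0.157 to 0.201 CPM (counts scaled to library size), counting error only. CPM values use TMM scaling over all 11 libraries. Fgf21 itself was at 0 counts in every library except shNC tumour replicates 2 and 6, with 2 and 1 counts, so the knockdown could not be checked. The 18 T cell markers summed to 463 to 905 CPM in shNC sorted libraries and 542 to 648 CPM in shFgf21 sorted libraries, against 1.21 to 3.12 CPM in the 6 tumour libraries. The 15 macrophage and monocyte markers stood higher still in sorted libraries, at 11005 to 13416 CPM in shNC and 17194 to 18555 CPM in shFgf21, against 16.4 to 30.1 CPM in tumours. The sorted libraries thus did not show T cell RNA alone.

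The MC38 tumour libraries held very much Vim and Fn1 and hardly any keratin 8, keratin 18 or Epcam. Vim (ENSMUSG00000026728, chr2:13573927-13582826, build mm10, plus strand) stood at 3256, 2814 and 3093 CPM in shNC tumour replicates 1, 2 and 6 and at 3584, 4363 and 3662 CPM in shFgf21 tumour replicates 1, 2 and 3. Fn1 (ENSMUSG00000026193, chr1:71585520-71653200, minus strand) stood at 6831, 7531 and 8619 CPM in the shNC tumours and at 6298, 4862 and 6479 CPM in the shFgf21 tumours. Every shFgf21 tumour was above every shNC tumour for Vim and below every one for Fn1. Per gene length, on the deposited FPKM scale, Vim (415 ± 20.0, SD, n = 3) and Fn1 (451 ± 60.8) overlapped in shNC tumours. The lengths behind these FPKM values, 7.81 kb for Vim and 18.1 kb for Fn1, exceed the principal coding transcripts in GENCODE M21, 2.19 and 8.32 kb. With those transcript lengths instead, the level per length in shNC tumours was 1477 ± 71.2 for Vim and 980 ± 132 for Fn1.

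The keratins of simple epithelium were at trace counts. Krt8 (ENSMUSG00000049382, chr15:101996698-102004482, minus strand) had 16, 2 and 2 counts in the shNC tumours and 0, 0 and 4 in the shFgf21 tumours. Krt18 (ENSMUSG00000023043, chr15:102028180-102032027, plus strand), whose product pairs with keratin 8 in the filament, had 18, 5 and 0 counts in the shNC tumours and 0 in all 3 shFgf21 tumours. Epcam (ENSMUSG00000045394, chr17:87635979-87651129, plus strand) had 8, 0 and 0 counts in the shNC tumours and 0 in all 3 shFgf21 tumours. Most of these counts came from shNC tumour replicate 1. Krt8 and Krt18 together made up 0% to 0.0678% of the summed counts of Krt8, Krt18 and Vim in the 6 tumour libraries. Keratin genes have pseudogene copies, so a few counts may have been assigned to or from such copies. Of pseudogenes named for Krt8 or Krt18, 1 was listed, with 6 counts over all 11 libraries.

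The cadherins were low in tumours, with N-cadherin above E-cadherin. Cdh2 (ENSMUSG00000024304, chr18:16588877-16809246, minus strand) stood at 14.9, 16.8 and 14.2 CPM in the shNC tumours and at 19.03, 19.03 and 18.1 CPM in the shFgf21 tumours. Cdh1 (ENSMUSG00000000303, chr8:106603351-106670246, plus strand) stood at 2.40, 2.60 and 2.67 CPM in the shNC tumours and at 2.08, 4.66 and 3.64 CPM in the shFgf21 tumours. Every shFgf21 tumour was above every shNC tumour for Cdh2, and the groups overlapped for Cdh1. On the FPKM scale the level of Cdh2 was 3.05 to 3.70 times that of Cdh1 in the shNC group and 2.33 to 5.22 times in the shFgf21 group. With principal transcript lengths, Cdh2 was at 3.36 ± 0.365 and Cdh1 at 0.613 ± 0.0481 in shNC tumours.

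All 3 repressors were present in tumours. Zeb1 (ENSMUSG00000024238, chr18:5591860-5775467, plus strand) stood at 61.3, 85.7 and 97.9 CPM in the shNC tumours and at 54.3, 107.7 and 77.7 CPM in the shFgf21 tumours. Zeb2 (ENSMUSG00000026872, chr2:44983632-45117395, minus strand) stood at 218, 138 and 189 CPM in the shNC tumours and at 172, 218 and 193 CPM in the shFgf21 tumours. Snai2 (ENSMUSG00000022676, chr16:14705852-14709385, plus strand) stood at 31.7, 50.2 and 54.4 CPM in the shNC tumours and at 34.4, 54.5 and 50.9 CPM in the shFgf21 tumours. The shNC and shFgf21 tumours overlapped for all 3 genes. Zeb1 and Snai2 were lowest in the library numbered 1 of both groups, a position shared by 10.8% of all 14950 genes tested in tumours. On the deposited FPKM scale Snai2 (23.99 ± 6.86, SD, n = 3) was far above Zeb2 (5.57 ± 1.10) and Zeb1 (5.20 ± 1.29) in shNC tumours, and Zeb2 and Zeb1 overlapped. With principal transcript lengths (9.12 kb for Zeb2 in place of 34.4 kb, and 5.80 kb for Zeb1 in place of 16.7 kb), Zeb2 was at 21.03 ± 4.17 and Zeb1 at 15.004 ± 3.71, with Snai2 again at 23.99, so Zeb2 and Snai2 no longer separated beyond their spread.

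**Figure D1:**
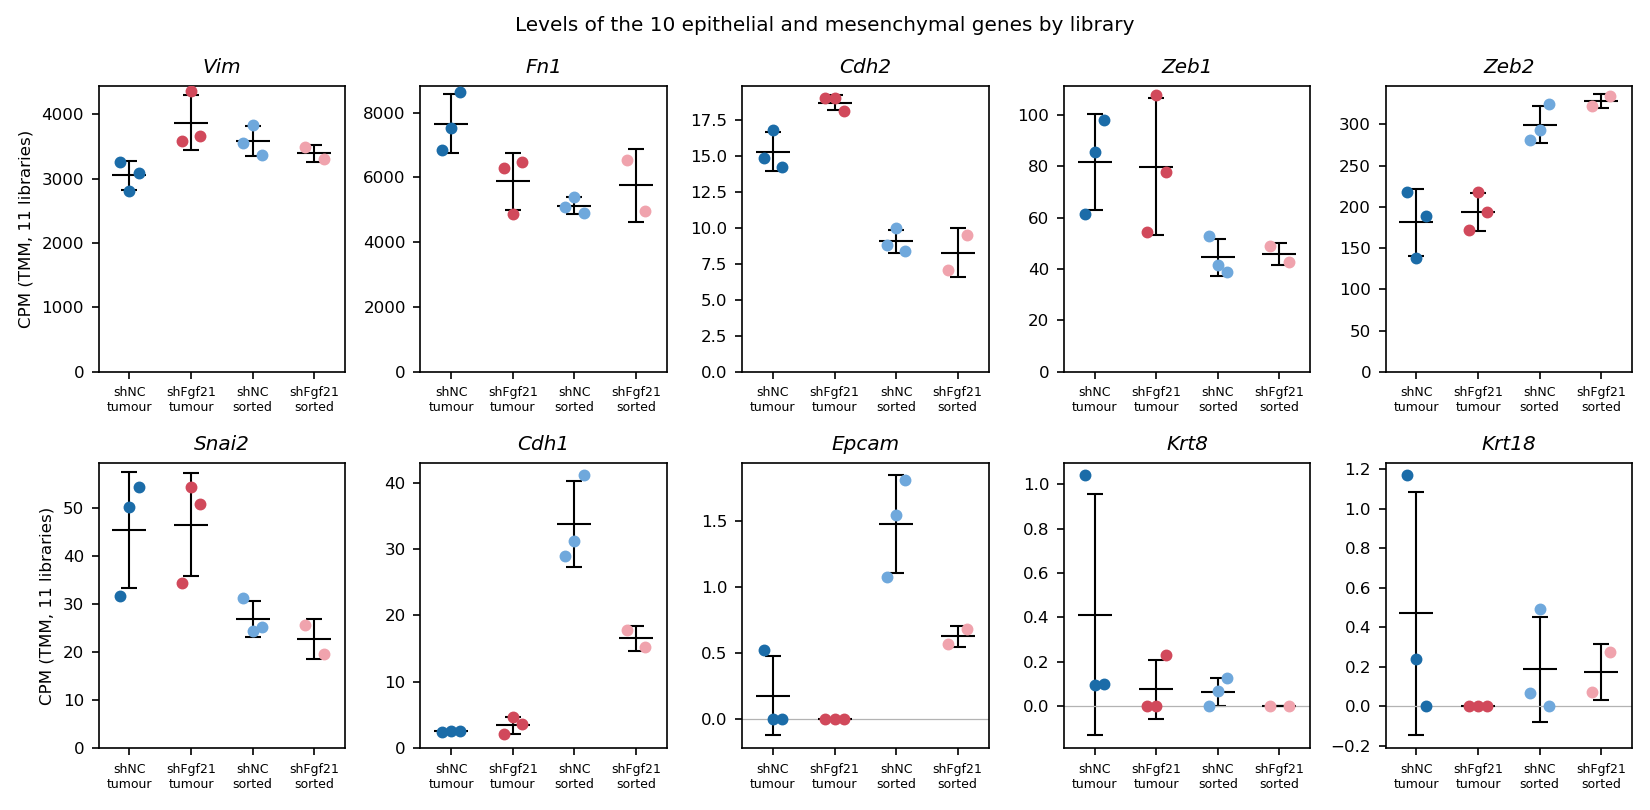
Level of each of the 10 genes in every library, in CPM with TMM scaling over 11 libraries, for the 4 groups; each point is 1 library, and the bar and whiskers are the mean ± SD (n = 3, or 2 for shFgf21 sorted). Vim is at 2814 CPM or more and Fn1 at 4862 CPM or more in every library, Cdh1 is above 15 CPM only in sorted libraries, and Krt8 and Krt18 stay under 1.2 CPM throughout.

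The wider lists of epithelial and mesenchymal genes had the same arrangement in tumours. Of 41 further epithelial junction and keratin genes, 30 had a mean under 1 CPM in shNC tumours and 30 in shFgf21 tumours. Those at 10 CPM or more in shNC tumours numbered 5, among them Tjp1 (130 ± 17.2 CPM), a scaffold protein that also occurs outside epithelia, and the basal keratin Krt14 (58.7 ± 8.31 CPM). Of 27 epithelial transcription and splicing regulators, 6 are microRNA genes, all at 0 in every library, whose mature products such a table does not measure. Of the other 21, 18 had a mean under 1 CPM in both tumour groups, and 2, Cdx2 and Foxa2, were at 0 in every library. The splicing factor Esrp1 had 2 counts in shNC tumour replicate 1, 3 in shFgf21 tumour replicate 1 and 0 elsewhere. The factor Grhl2, an activator of Cdh1, had 2 to 6 counts in each tumour library. The 3 regulators with a mean of 10 CPM or more in shNC tumours were Klf4, Klf5 and Foxa1. Klf5 stood at 33.6, 14.6 and 19.2 CPM in the shNC and 29.4, 19.3 and 20.6 CPM in the shFgf21 tumours. Foxa1 stood at 10.7, 10.7 and 9.21 CPM in the shNC and 11.2, 9.02 and 9.41 CPM in the shFgf21 tumours. Klf4 made up 96.9% to 98.9% of this list's summed CPM in every library and stood at 1355 ± 95.2 CPM in shNC tumours. Klf4 is an epithelial factor of the gut that many other cell types express too. By contrast, of 45 mesenchymal structural genes 37 had a mean of 10 CPM or more in shNC tumours. So did 18 of 22 mesenchymal transcription factors, among them Twist1 at 141, 151 and 127 CPM and Prrx1 at 386, 240 and 298 CPM. The highest of these factors was Sox9, at 857, 849 and 872 CPM. The list was not limited to factors confined to mesenchymal cells.

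With the hairpin against Fgf21, none of the 10 genes passed the test in tumours. Of the 10, 7 were tested and Epcam, Krt8 and Krt18 failed the filter on low counts. By edgeR's quasi-likelihood test with Benjamini-Hochberg adjustment over 14950 genes, 0 of the 7 were called, beside 0.0334% of all genes, and 0 by DESeq2 and limma voom. At an unadjusted p under 0.05 stood 2 of the 7, beside 6.22% of all genes. These were Vim, whose log2 fold change was 0.33 with an SE of 0.14 (adjusted p = 0.782), and Fn1, whose value was -0.39 ± 0.16 (adjusted p = 0.782). For Cdh2 it was 0.28 ± 0.15 (adjusted p = 0.845). Vim, Fn1 and Cdh2 were the 3 of 7 whose groups did not overlap, beside 11.8% of all genes. The 95% intervals of the log2 fold change ran from 0.02 to 0.64 for Vim, from -0.75 to -0.03 for Fn1 and from -0.06 to 0.63 for Cdh2.

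For the repressors the tumour differences were small beside their errors, and for Cdh1 the 95% interval held 0. The log2 fold change was -0.04 ± 0.26 for Zeb1, 0.09 ± 0.19 for Zeb2 and 0.03 ± 0.24 for Snai2, and their 95% intervals ran from -0.63 to 0.55, from -0.34 to 0.52 and from -0.52 to 0.58. The signs of all 3 turned when single libraries were left out. For Cdh1 the log2 fold change was 0.43 ± 0.33, with an interval of -0.33 to 1.18. It kept its sign when single libraries were left out (0.16 to 0.69). On the deposited FPKM scale, the ratio of Vim to Fn1 lay between 0.831 and 1.10 in the shNC and between 1.31 and 2.08 in the shFgf21 group, with no overlap. That ratio repeats the opposite differences of both genes and was not tested. Its size depends on the lengths used. With principal transcript lengths, Vim and Fn1 were at 1477 ± 71.2 and 980 ± 132 in shNC and at 1834 ± 211 and 735 ± 113 in shFgf21 tumours.

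None of the wider lists had a called gene in the tumour comparison. Of 43 mesenchymal structural genes tested, 0 were called, 14 had an unadjusted p under 0.05, beside 6.22% of all genes, and the median log2 fold change was -0.19, beside -0.01 over all genes. The smallest p-values in that list belonged to the surface protein Thy1 (0.510 ± 0.118 CPM in shFgf21 against 6.79 ± 6.57 CPM in shNC tumours, adjusted p = 0.297 by edgeR) and the matrix protein Tnc (25.4 ± 4.20 against 85.9 ± 48.5 CPM, adjusted p = 0.348), which did not pass. The shNC levels in replicates 1, 2 and 6 were 14.4, 3.51 and 2.52 CPM for Thy1 and 142, 63.4 and 52.7 CPM for Tnc, so the first library set much of both means. Of 18 mesenchymal transcription factors 0 were called (median 0.02). The smallest p there belonged to Snai1, a relative of Snai2, at 42.6 ± 6.70 against 61.0 ± 15.6 CPM (adjusted p = 0.773 by edgeR). Of 11 epithelial junction genes 0 were called (median -0.27), with Krt14 at 42.5 ± 8.89 against 58.7 ± 8.31 CPM (adjusted p = 0.753 by edgeR). Of 30 genes of TGF-beta signalling, which drives many cells toward a mesenchymal state, 0 were called (median -0.09).

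Within the tumour libraries, shNC tumour replicate 1 stood apart, an observation made after its values were seen. It held the most counts of Krt8, Krt18 and Epcam, and also of Krt19 (26 counts, against 0 to 10 in the other 5 tumour libraries) and of the tight junction gene Cldn4 (20 counts, against 0 to 6). The matrix gene Col1a2 was at 1024 CPM there and at 34.9 to 164 CPM in the other 5, and the matrix protein Postn was at 332 CPM against 17.8 to 80.3 CPM. That library was the highest of the 6 for 11 of 12 endothelial markers, for 22 of 44 mesenchymal structural genes and for 7 of 23 epithelial junction and keratin genes with at least 10 counts, beside 19.5% of all genes. It was also the highest for 7 of 13 fibroblast and pericyte markers and 6 of 10 macrophage and monocyte markers, and for 3 of 18 mesenchymal transcription factors. Summed endothelial markers lay between 17.9 and 45.01 CPM in the shNC group and between 18.03 and 21.6 CPM in the shFgf21 group. Whether other cells took part in these values was not tested. Without that library the log2 fold changes of Vim, Fn1 and Cdh2 between tumour groups kept their signs and none passed.

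**Figure D2:**
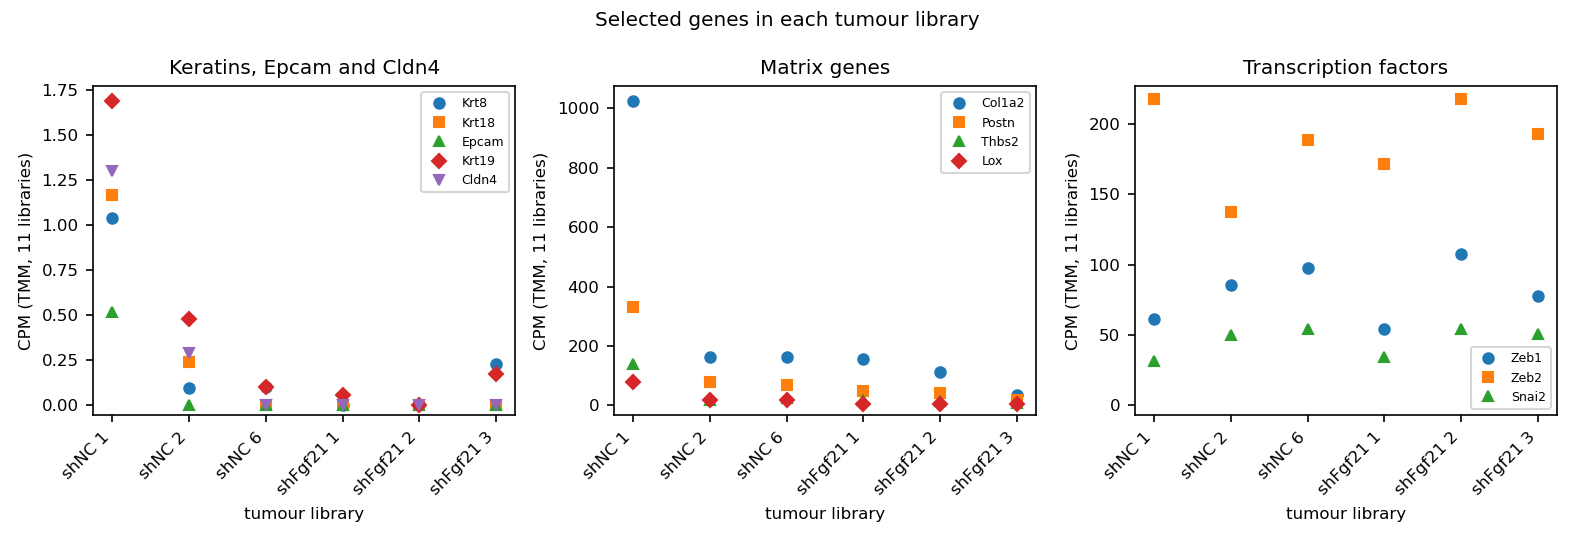
CPM (TMM scaling over 11 libraries) of 5 epithelial genes, 4 matrix genes and the 3 repressors in each of the 6 tumour libraries; each point is 1 gene in 1 library. The epithelial and matrix genes drawn were picked after their values were seen and are highest in shNC replicate 1. The collagen gene Col3a1, not drawn, was not highest there (3551 CPM, against 2694 to 4024 CPM in the other 5). Zeb1 and Snai2 are lowest in the library numbered 1 of each group.

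In sorted libraries Cdh1 and Epcam had lower values with the hairpin against Fgf21, and neither passed the edgeR test. Cdh1 stood at 28.9, 31.2 and 41.1 CPM in shNC sorted replicates 1, 2 and 3 and at 17.9 and 15.2 CPM in shFgf21 sorted replicates 1 and 2. Epcam had 16, 22 and 29 counts in the shNC and 8 and 10 counts in the shFgf21 sorted libraries. Both shFgf21 libraries were below all 3 shNC libraries for both genes. Of the 10 genes 8 were tested (Krt8 and Krt18 failed the filter) and 0 were called by edgeR, beside 0.079% of 16454 genes. The log2 fold change of Cdh1 was -1.05 ± 0.18 (SE), with a 95% interval of -1.47 to -0.62 and an adjusted p of 0.130 by edgeR, while DESeq2 gave an adjusted p of 2.87e-04 and so called 1 of the 8. Under the other alternatives the adjusted p of Cdh1 ran from 0.111 to 0.738 and its log2 fold change from -1.17 to -0.88. For Epcam it was -1.25 ± 0.43 (adjusted p = 0.357 by edgeR). At an unadjusted p under 0.05 these were the 2 of 8, beside 11.2% of all genes, and they were also the 2 whose groups did not overlap, beside 29.8%.

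The other tested genes had smaller fold changes between sorted groups than Cdh1 and Epcam, and none was called. Vim stood at 3557, 3833 and 3375 CPM in the shNC and 3486 and 3300 CPM in the shFgf21 sorted libraries, and Fn1 at 5071, 5409 and 4903 against 6544 and 4961 CPM. Both overlapped. The log2 fold changes of Vim, Fn1, Cdh2, Zeb1, Zeb2 and Snai2 ran from -0.27 (Snai2, ± 0.17) to 0.15 (Fn1, ± 0.15). Each 95% interval held 0, and some were wide, from -0.66 to 0.13 for Snai2 and from -0.59 to 0.29 for Cdh2. In bulk libraries, fewer cells of a type and less RNA per cell cannot be told apart. Of the 15 macrophage and monocyte markers, 10 were at an unadjusted p under 0.05 between the sorted groups, beside 11.2% of all genes. Of the 15, 0 were called, and the list median was a log2 fold change of 0.41, beside -0.01 over all genes. The part of cell makeup in the Cdh1 values was not tested.

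Among the wider lists, no gene was called between sorted groups by edgeR. Of 21 epithelial junction and keratin genes tested, 3 had an unadjusted p under 0.05, beside 11.2% of all genes, and the median log2 fold change was -0.10. Their directions differed, with Krt14 at 26.8 ± 1.14 CPM in shFgf21 against 39.4 ± 2.24 CPM in shNC (adjusted p = 0.171) and the protease inhibitor Spint1 at 25.3 ± 2.26 against 13.5 ± 5.21 CPM (adjusted p = 0.361). Of 43 mesenchymal structural genes 14 had an unadjusted p under 0.05, with a median of -0.02. Nearest to the threshold was Tnc, at 24.9 ± 5.15 CPM in shFgf21 against 56.6 ± 7.16 CPM in shNC (log2 fold change -1.20 ± 0.17, adjusted p = 0.0824). Klf4 stood at 1471 ± 105 against 966 ± 58.4 CPM (adjusted p = 0.130), and the microfibril gene Fbn1 at 863 ± 32.1 against 597 ± 52.6 CPM (adjusted p = 0.188). Of 9 fibronectin receptor genes 5 had an unadjusted p under 0.05, beside the same 11.2%, and 0 were called, with Itgb5, an integrin subunit, at 315 ± 31.7 against 230 ± 7.20 CPM (adjusted p = 0.209 by edgeR).

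Whether the hairpin difference itself differed between sorted and tumour libraries was tested as an interaction over all 4 groups. Of the 8 genes tested 0 were called by edgeR, beside 0.00577% of 17327 genes, and 3 stood at an unadjusted p under 0.05, beside 4.77%. The difference of log2 fold changes, sorted minus tumour, was -1.46 ± 0.38 for Cdh1 (adjusted p = 0.794). It was -0.42 ± 0.17 for Vim and 0.55 ± 0.23 for Fn1, and neither passed. The estimate for Epcam, 3.15 ± 2.22, was made against 3 shFgf21 tumours at 0 counts and is no bound.

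**Figure D3:**
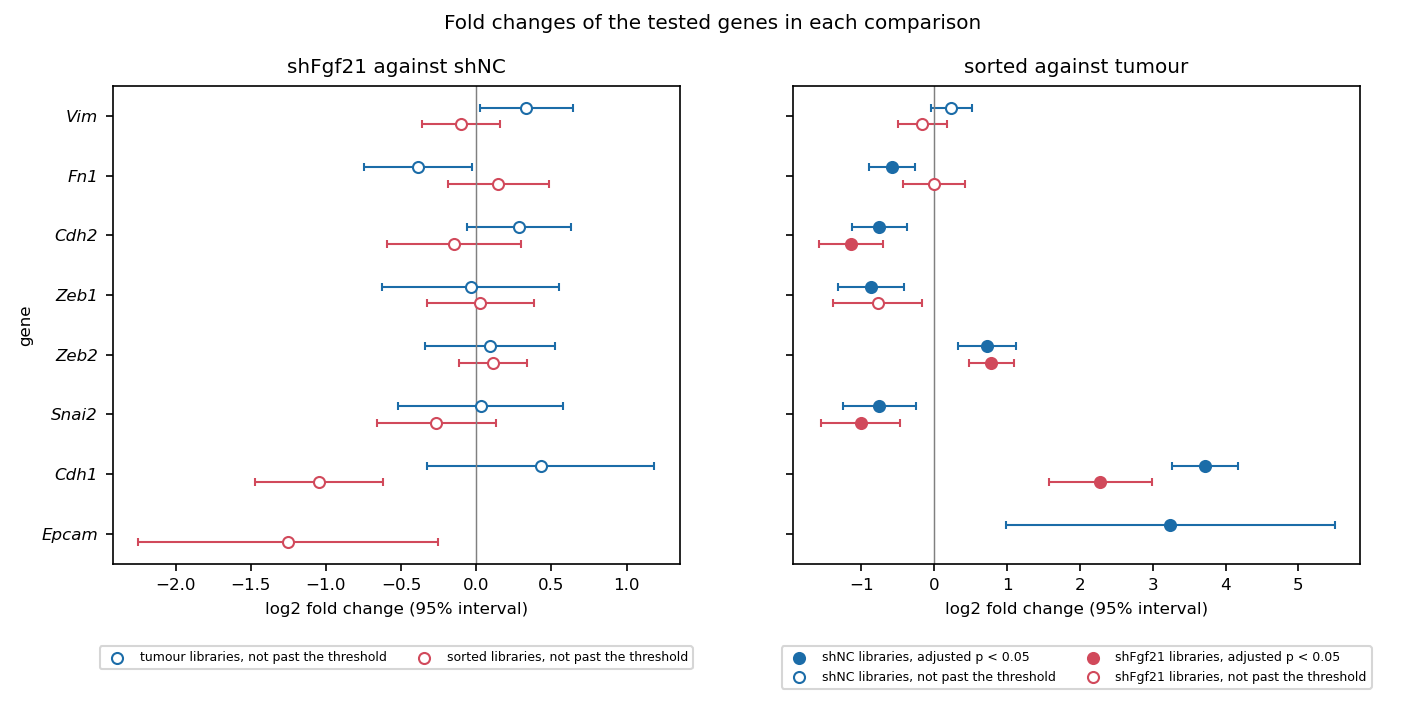
Log2 fold changes with 95% intervals of the tested genes for shFgf21 against shNC (left, tumour and sorted libraries) and for sorted against tumour (right, shNC and shFgf21 libraries); filled points passed an adjusted p of 0.05 in edgeR. No point is filled on the left, and Cdh1 lies farthest from 0 on the right, at 3.72 in shNC and 2.28 in shFgf21.

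Between the kinds of sample the differences were much larger. In shNC libraries, Cdh1, Epcam and Zeb2 were higher in sorted cells and Fn1, Cdh2, Zeb1 and Snai2 were lower. That is 7 of 8 tested genes called, 3 higher and 4 lower, where 31% of 16104 genes were called (19.1% higher and 11.9% lower). Epcam passed the filter only through the sorted libraries, and without it the count is 6 of 7, 2 higher and 4 lower. The groups did not overlap for any of the 8, beside 47.2% of all genes. Such large shares of all genes mean that a call between these kinds of sample is common.

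Cdh1 had the largest difference of the 7 tested genes other than Epcam. At 33.7 ± 6.47 CPM in shNC sorted libraries against 2.56 ± 0.137 CPM in shNC tumours, it was 13.2-fold higher (log2 fold change 3.72 ± 0.20, adjusted p = 4.99e-06 by edgeR). In shFgf21 libraries it was 4.87-fold higher in sorted cells, at 16.5 ± 1.87 against 3.46 ± 1.30 CPM (2.28 ± 0.31, adjusted p = 7.34e-04 by edgeR). Epcam was 9.45-fold higher in shNC sorted libraries (3.24 ± 0.98, adjusted p = 0.0377 by edgeR), but its call was lost on leaving out any of the 3 sorted libraries or shNC tumour replicate 2 or 6 (adjusted p up to 0.118 by edgeR), and with no filter on low counts. All 8 of its shNC tumour counts were in replicate 1, and its fitted log2 fold change ran from 2.60 to 7.68 on leaving out 1 library, highest without that tumour. In shFgf21 libraries it had 18 counts in sorted cells and 0 in tumours. Against a floor of 3 counts over the tumour group that is 9.31-fold. The counting error of the 18 is not included, so this is no lower bound. Krt8 stayed at 0 to 2 counts and Krt18 at 0 to 7 counts in each sorted library, so these 2 keratins did not accompany Cdh1. The basal keratin Krt14 was at 41.9, 38.3 and 37.8 CPM in shNC sorted libraries, against 54.8, 68.2 and 53.0 CPM in shNC tumours. Other listed epithelial genes went in both directions, as given below. On the FPKM scale the ratio of Cdh2 to Cdh1 was 0.117 to 0.356 in sorted libraries, against 2.33 to 5.22 in tumours. Cdh1 is made by some leukocytes as well as by epithelia, and the source of these counts was not tested.

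The repressors differed in direction. Zeb2, which is also active in macrophages and effector T cells, stood at 281, 293 and 325 CPM in the shNC and 322 and 334 CPM in the shFgf21 sorted libraries, all above the 6 tumours. Its log2 fold change, sorted against tumour, was 0.73 ± 0.17 in shNC (adjusted p = 0.0144 by edgeR) and 0.78 ± 0.13 in shFgf21 (adjusted p = 0.00271). Zeb1 stood at 52.8, 41.7 and 39.0 CPM in the shNC and 49.0 and 42.8 CPM in the shFgf21 sorted libraries, all below the 6 tumours. Its log2 fold change was -0.87 ± 0.20 in shNC (adjusted p = 0.0113 by edgeR) and -0.77 ± 0.27 in shFgf21 (adjusted p = 0.0523, not past the threshold). Snai2 stood at 31.3, 24.4 and 25.2 CPM in the shNC and 25.7 and 19.7 CPM in the shFgf21 sorted libraries, also all below the tumours. Its log2 fold change was -0.75 ± 0.21 (adjusted p = 0.0305 by edgeR) and -1.01 ± 0.24 (adjusted p = 0.0118). On the FPKM scale, the ratio of Zeb2 to Zeb1 was 2.59 to 4.04 in sorted libraries and 0.781 to 1.72 in tumours. With principal transcript lengths, Zeb2 and Zeb1 were at 31.6 ± 2.31 and 7.39 ± 1.27 in shNC sorted libraries and at 21.03 ± 4.17 and 15.004 ± 3.71 in shNC tumours.

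Each call of these factors was lost when some single library was left out, except that of Zeb2 in shFgf21, which held in all 5 fits with 1 library left out (adjusted p 0.00247 to 0.0345 by edgeR). Without shNC sorted replicate 3, Zeb1, Zeb2, Snai2 and Epcam lost theirs and 3 genes remained called. Without shNC sorted replicate 2, Zeb1, Snai2 and Epcam lost theirs and 4 remained. Snai2 also lost its call in shNC without tumour replicate 2 or 6, and in shFgf21 without sorted replicate 2, the library with the FGF22 label (adjusted p = 0.112 by edgeR, against 5.48e-04 to 0.0376 under the other alternatives). Zeb1 passed in shFgf21 without tumour replicate 1 (adjusted p = 0.00324 by edgeR), with library totals, with DESeq2 and with all 4 groups in 1 fit, and its adjusted p was up to 0.251 under the rest.

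The mesenchymal structural members divided. Cdh2 stood at 8.83, 9.97 and 8.43 CPM in the shNC and 7.09 and 9.48 CPM in the shFgf21 sorted libraries, below every tumour. Its log2 fold change was -0.75 ± 0.16 in shNC (adjusted p = 0.00995 by edgeR) and -1.15 ± 0.19 in shFgf21 (adjusted p = 0.00230). Fn1 was lower in sorted cells in shNC (-0.58 ± 0.14, adjusted p = 0.0140 by edgeR), while in shFgf21 the difference was -0.01 ± 0.19 (adjusted p = 0.984). Vim was not called in either (0.23 ± 0.12 and -0.16 ± 0.14), and was at 2814 CPM or more in every library. In shFgf21 libraries 4 of the 7 tested genes were called, Cdh1 and Zeb2 higher and Cdh2 and Snai2 lower, beside 35.8% of 16229 genes (22.7% higher and 13.1% lower). Of those 7, the groups did not overlap for any but Fn1, beside 61.8% of all genes.

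**Figure D4:**
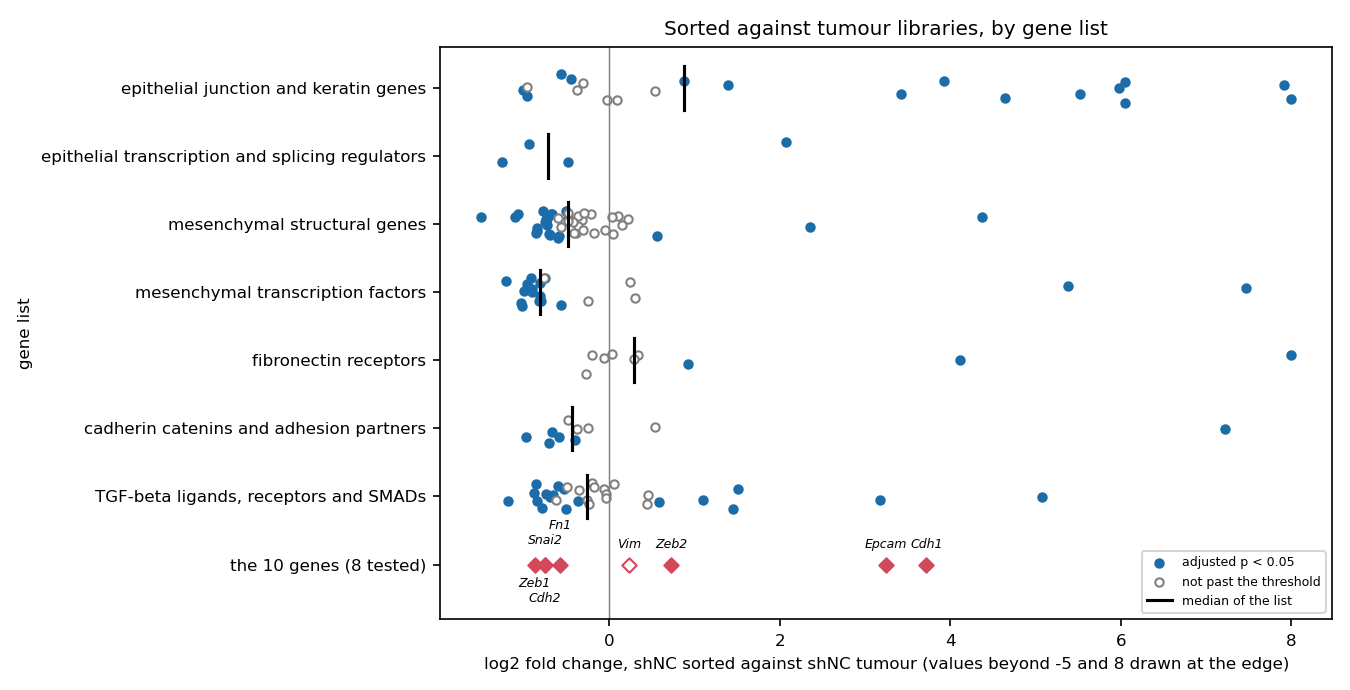
Log2 fold changes of the listed genes tested in shNC sorted against shNC tumour libraries, 1 row per list, with the 8 tested of the 10 genes at the bottom as diamonds; filled points passed an adjusted p of 0.05 in edgeR and black bars are list medians. The mesenchymal transcription factors lie mostly below 0 (median -0.82) and the epithelial junction genes reach far above 0, where 9 of the 11 called entered only through the sorted libraries.

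The wider lists differed between the kinds of sample too. Beside their counts, 19.1% of all genes were higher and 11.9% lower in shNC, and 22.7% and 13.1% in shFgf21. Of 20 mesenchymal transcription factors tested in shNC, 14 were lower and 2 higher in sorted libraries (median log2 fold change -0.82, beside -0.02 over all genes), and both higher ones entered only through the sorted libraries. In shFgf21 12 of 18 were lower and 0 higher (median -0.78). Prrx1, a mesenchymal homeobox factor, was at 152 ± 32.9 CPM in sorted against 308 ± 73.8 CPM in tumour shNC libraries (adjusted p = 0.00878 by edgeR). Wwtr1, the Hippo pathway coactivator TAZ, was at 143 ± 12.9 against 285 ± 35.6 CPM (adjusted p = 7.78e-04). Of 43 mesenchymal structural genes, 19 were lower and 3 higher in shNC (median -0.48), and 17 were lower and 10 higher in shFgf21 (median -0.28). The gelatinase Mmp2 was at 853 ± 41.2 against 1846 ± 107 CPM in shNC (adjusted p = 1.86e-04 by edgeR). Among those higher was Thy1, also a T cell surface protein in mice, at 137 ± 31.1 against 6.79 ± 6.57 CPM.

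Of 21 epithelial junction and keratin genes tested in shNC, 11 were higher and 4 lower in sorted libraries, and in shFgf21 9 of 18 were higher and 4 lower. Over all genes 19.1% were higher and 11.9% lower in shNC, and 22.7% and 13.1% in shFgf21. Of the 21, 10 failed the filter on low counts among tumours and entered only through the sorted libraries, and 9 of the 11 higher ones were among them, so these counts give no lean of the list. The desmosomal plaque gene Pkp3 was at 15.8 ± 3.80 CPM in sorted against 6.02 ± 1.71 CPM in tumour shNC libraries (adjusted p = 0.00684 by edgeR). Among those lower were Cldn12, Tjp1 and Krt14, with Tjp1 at 66.2 ± 4.57 against 130 ± 17.2 CPM (adjusted p = 8.77e-04). The listed partners of cadherins were mostly lower where called. Of 10 tested, 5 were lower and 1 higher in shNC, beside 11.9% lower and 19.1% higher over all genes. The 1 higher gene entered only through the sorted libraries. Ctnna1, the alpha-catenin that links cadherins to actin, was at 369 ± 7.11 against 555 ± 49.2 CPM (adjusted p = 0.00496 by edgeR).

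Called receptors for fibronectin were higher in sorted libraries, and TGF-beta genes were mixed. Of 9 fibronectin receptor genes tested in shNC, 3 were higher and 0 lower, and of 10 in shFgf21, 5 were higher and 0 lower. Over all genes 19.1% were higher and 11.9% lower in shNC, and 22.7% and 13.1% in shFgf21. In both comparisons 2 of the higher receptor genes, Itga4 and Itga8, entered only through the sorted libraries, so these counts give no lean of the list. Itga4, a leukocyte integrin subunit, was at 37.4 ± 4.68 CPM and at 0 counts in all 3 shNC tumours. Of 31 TGF-beta genes, 6 were higher and 12 lower in shNC, and 8 were higher and 10 lower in shFgf21, beside the same shares of all genes. In each, 1 of the higher ones entered only through the sorted libraries. The ligand Tgfb1 was at 237 ± 23.0 against 83.3 ± 17.3 CPM (adjusted p = 2.76e-04 by edgeR) and the receptor Tgfbr2 at 129 ± 13.0 against 60.4 ± 6.97 CPM (adjusted p = 4.42e-04). The inhibitor of differentiation Id2, a target of this pathway, was at 515 ± 12.5 against 57.3 ± 9.53 CPM (adjusted p = 3.36e-06). Lower were the ligand Bmp2, at 50.02 ± 4.18 against 114 ± 26.3 CPM (adjusted p = 0.00134 by edgeR), and the receptor Bmpr1a, at 48.0 ± 1.56 against 87.6 ± 9.35 CPM.

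All 18 T cell markers and all 15 macrophage and monocyte markers were called higher in sorted libraries, in shNC and in shFgf21. Of these, 17 of the 18 and 8 of the 15 entered only through the sorted libraries in both comparisons, so a call was nearly fixed for them. Over all genes 19.1% were called higher in shNC and 22.7% in shFgf21. Of the 13 fibroblast and pericyte markers, 4 were lower and 1 higher in shNC (median log2 fold change -0.16), and 4 were lower and 4 higher in shFgf21 (median 0.65). Over all genes 11.9% were lower in shNC and 13.1% in shFgf21. Of the 4 higher in shFgf21, 1 entered only through the sorted libraries. The proteoglycan Dcn was still at 813 ± 103 CPM in shNC sorted libraries, against 1680 ± 56.2 CPM in shNC tumours. The sorted libraries therefore held RNA of mesenchymal genes beside leukocyte RNA, and how much of each of the 10 genes came from which cells was not tested.

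Across the 11 libraries, the genes whose log2 CPM was most like each of 3 members were ranked among 10294 genes by Pearson r, as a description over libraries that fall into separate kinds. For Vim these were mt-Nd6 (r = 0.903), Mtmr1 (0.900) and Rfc2 (0.881). For Fn1 they were Lrp5 (0.924), Fbxo10 (0.911) and Thbs3 (0.911). For Zeb2 they were Acsl4 (0.988), Tut7 (0.982) and Capza2 (0.982). Zeb2 separated the kinds of sample, which its highest values share.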

How the data were processed

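Counts per gene were analysed as deposited, and the authors also deposited FPKM values. Per the file headers each library has 1 column of counts and 1 of FPKM. Per the submitters' processing notes, reads were placed on mm10. Aligner, counter, annotation release and strandedness were not given in the sources used here, so overlapping and antisense transcripts (such as Zeb2os at Zeb2) cannot be separated. The deposited FPKM equals the count over a fixed gene length and the library total, with the implied length differing between libraries by at most 8.4e-04% over 9655 genes. FPKM was used only to compare levels between genes and was not tested.

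Counts were tested in R 4.3.3 with edgeR 4.0.16: filterByExpr, TMM scaling, the quasi-likelihood F-test and Benjamini-Hochberg adjustment over all genes tested, with a threshold of 0.05. Only the groups compared entered each fit, except the interaction, which used all 4. Standard errors are the log2 fold change over the square root of F. The fits were first run on simulated counts, whose recovery is not given here. Only genes at a mean of 10 CPM or more were changed in them. Epcam, Krt8 and Krt18, and Cdh1 within tumours, lie below that level and were not covered. Library totals were 14968855 to 19099350 in shNC tumours, 15451669 to 16972761 in shFgf21 tumours, 14944013 to 16654736 in shNC sorted and 15257217 to 16184050 in shFgf21 sorted libraries.

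The 10 genes and the lists were chosen with earlier results of these data known. Lists are described by counts and medians, with no set test. Named beside the 10 were called list genes with a mean of at least 10 CPM and the largest changes (up to 4 per direction), of which some are given, or, where none was called, those with the smallest p. Others (Twist1, Sox9, Grhl2, Esrp1, Klf5, Foxa1, Spint1, Cdx2, Foxa2, Col1a2, Col3a1, Postn, Thbs2, Lox, Krt19, Cldn4) were chosen after their values were seen. Likeness used log2 CPM with a prior count of 2 among genes of at least 10 CPM. Alternatives were median-ratio size factors, library totals, no filter, a mean of at least 5 CPM, DESeq2 1.42.0, limma 3.58.1 voom, all groups in 1 fit, a replicate block and leaving out each library. A principal transcript length in place of the FPKM length was added after seeing the data. Promoter windows come from RefSeq.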

Additional observations from a re-analysis of the deposited data

How the results depend on the processing

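Of the fold changes of the 10 genes under alternatives, 464 kept their direction and side of the threshold, 31 changed sign, 14 lost and 5 gained a call. No gene was called in tumours between hairpins under any alternative. With DESeq2, 1 gene (Cdh1) was called between sorted groups. Leaving out 1 library gave 3 to 7 called genes in shNC sorted against tumour and 3 to 5 in shFgf21. A lone remaining sorted library was assumed to vary like the others.

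Sign changes were confined to differences that were not called. With library totals the log2 fold change was -0.0011 for Snai2 in tumours, -0.029 for Zeb1 in sorted libraries and -0.015 for Zeb2 in the interaction. With limma voom the interaction of Epcam was -0.086. For Fn1 in shFgf21 sorted against tumour it was 0.0018 with median-ratio size factors and with DESeq2, and 0.012 with the filter of 5 CPM. Leaving out 1 library in tumours gave -0.17 to 0.21 for Snai2, -0.070 to 0.25 for Zeb2 and -0.31 to 0.18 for Zeb1. In sorted libraries it gave -0.076 to 0.16 for Zeb1, -0.068 to 0.34 for Fn1 and -0.37 to 0.044 for Cdh2. In the interaction it gave -0.12 to 0.20 for Zeb2, -1.23 to 3.75 for Epcam and -0.14 to 0.35 for Zeb1, and for Fn1 in shFgf21 sorted against tumour -0.22 to 0.18. The cause was not tested.

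The labels state no pairing of tumour libraries by the numbers in their titles. Deviations from the group means correlated at 0.17 for number 1 and -0.15 for number 2 over 14950 genes. Pairs of unlike numbers ran from -0.25 to 0.17, so with these few libraries the check cannot decide whether numbers pair. Titles of sorted libraries join several numbers, some of which recur in tumour titles. No label used here says whether such numbers mark the same animals. Sorted and tumour libraries were fitted as independent, so any sharing of animals between them was ignored. With the replicate block, 0 of the 10 genes were called and Zeb1 in tumours was 0.069. Depth limits Epcam, Krt8 and Krt18, whose tumour counts were 0 to 18 per library.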
